A study of Drosophila melanogaster with 32 samples.

Results

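Notch signalling was followed through its receptor, its ligands and its core processing and nuclear factors in 3 Drosophila melanogaster cell lines, named R1, R4 and R5, while the cultures passed from their first passages to established lines. The group held 10 of the 15251 genes counted, taken by symbol from the entries of the count files: N, Dl, Ser, fng, kuz, neur, mib1, Su(H), mam and H. They lie on X (N), 2L (kuz, Su(H)), 2R (mam), 3L (fng, mib1) and 3R (Dl, Ser, neur, H), and the files list them as FBgn0004647 (N), FBgn0000463 (Dl), CG6127 (Ser), CG10580 (fng), FBgn0259984 (kuz), FBgn0002932 (neur), CG5841 (mib1), CG3497 (Su(H)), CG8118 (mam) and CG5460 (H). The E(spl) target genes were not part of the group. All 10 were matched and all 10 were among the 9177 genes tested, those with a level of at least 1 CPM, counts scaled to a library of standard size, in at least 3 libraries. Total RNA was sequenced in 32 libraries, each 1 passage of 1 line, a passage being a round of splitting the culture into fresh medium. The late stage held passages 16, 17 and 19 of each line, the intermediate stage held passages 5 to 11 (5 libraries each of R1 and R4, and 3 of R5), and the early stage held passages 2, 3 and 4 of each line. Every culture was kept in T flasks in Schneider's medium with antibiotics and fetal bovine serum, and no treatment separated the groups. The sources used here give no genotype and no tissue of origin for R1, R4 or R5. Passage 12 of R4, which the series text puts in no stage, entered no comparison.

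In flies the transmembrane receptor Notch is switched on by contact with the ligands Delta or Serrate on a neighbouring cell. Ubiquitin ligases drive endocytosis of the ligand, the pull exposes the receptor to a metalloprotease of the ADAM family, and gamma-secretase then frees its intracellular domain, which enters the nucleus and turns the DNA-binding protein Suppressor of Hairless from a repressor into an activator. The pathway is known for lateral inhibition among neural precursors, for boundary formation in imaginal discs and for holding adult muscle precursors undifferentiated. Sequences of the members were not analysed here.

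Total counts per library ran from 7760446 to 18213927, and no pair of libraries was identical. Of the 31 grouped libraries 27 correlated best with their own line within a stage, and the 4 that did not were passages 2, 3 and 4 of R4 and passage 2 of R5. The summed level of 5 fat body markers was 7.35 to 23.97 CPM at late and 19.4 to 518 CPM at early, and 3 of the 5 were called in late against early. For 5 markers of the gonadal soma it was 203 to 334 CPM at late and 296 to 639 CPM at early (2 of 5 called), and for 5 glial markers 54.8 to 127 CPM at late and 67.6 to 250.0 CPM at early (1 of 5 called). No marker was called of 5 each for hemocytes, adult muscle precursors, neurons, neuroblasts and epithelia. Their sums were 118 to 468 CPM at late and 59.0 to 458 CPM at early for hemocytes, 729 to 1119 CPM at late and 630.0 to 936 CPM at early for muscle precursors and 282 to 492 CPM at late and 320.0 to 692 CPM at early for neurons. They were 17.9 to 36.2 CPM at late and 24.3 to 82.7 CPM at early for neuroblasts and 1292 to 2073 CPM at late and 1233 to 3194 CPM at early for epithelia. These calls were over the lines, and single lines could differ. Muscle precursor sums were 990 to 1119 CPM at late and 670 to 757 CPM at early in R1, 950 to 1054 and 630 to 848 CPM in R4, and overlapped in R5. Late sums were below all early ones for neurons in R4 and for neuroblasts and epithelia in R1. The other sums of these 5 types overlapped within a line. Fat body genes with no read at late included Fbp1 in R1 and R5 and Fbp2 in R4. Whether further fat body markers had no read in these groups was not recorded. In such bulk RNA fewer cells of a type and less RNA per cell cannot be told apart, and the part of these markers in the results below was not tested.

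The first question was which members differed between the established and the first passages on average over the lines. Counts were summed per line and stage, the line was kept as a block, and edgeR's quasi-likelihood test was used with Benjamini-Hochberg adjustment over all genes. Of the 10 members 1, the ligand gene Ser, rose, against a background of 10.5% of all genes called and 3.98% called upward. No member fell, beside 6.56% of all genes. The median log2 change of the members was 0.20, with a range of -0.55 to 1.09, beside a median of 0.03 over all genes tested, and 6 members had an unadjusted p under 0.05, as had 2832 of 9177 genes. With DESeq2 4 members were called, beside 1860 genes, Dl and Ser upward and fng and mam downward. The members did not share a direction: the ligands, the receptor, kuz and neur had positive estimates and fng, mam and mib1 negative ones.

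**Figure D1:**
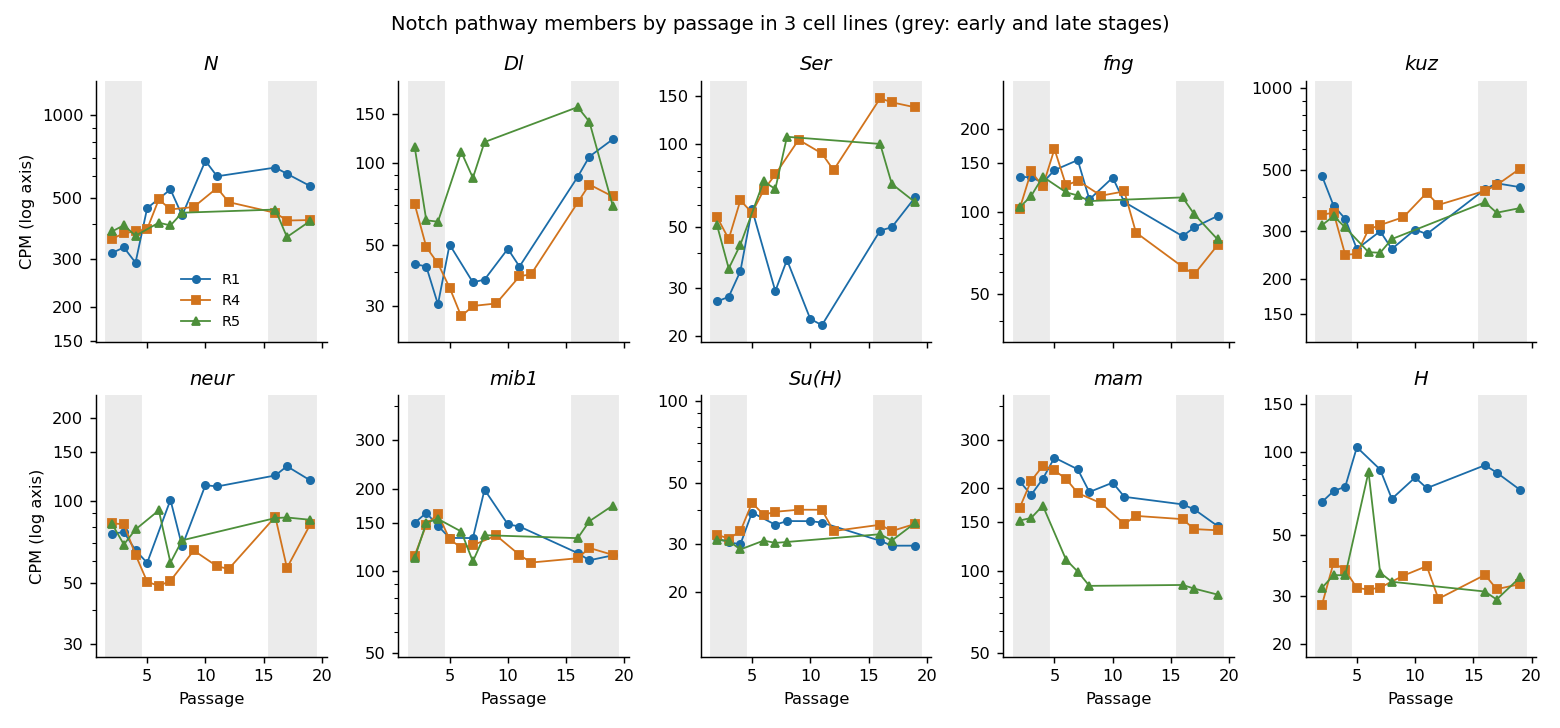
CPM of the 10 members (log axis) against passage number, each point 1 library of R1 (circles), R4 (squares) or R5 (triangles), with the early and late stages shaded. Ser is higher at late than at early passages in every line, mam is lower in every line, and H in R1 lies apart from R4 and R5 in all stages, with R5 at passage 6 (84.9 CPM) as the exception.

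The receptor gene N ranged from 289.8 to 682 CPM over all 32 libraries. In R1 N stood at 645, 612 and 552 CPM at late passages, against 315, 329 and 289.8 CPM at early passages. In R4 N stood at 440.5, 413 and 415 CPM at late passages, against 354, 371 and 377 CPM at early passages. In R5 N stood at 453, 359 and 412 CPM at late passages, against 377, 397 and 363 CPM at early passages. The late and early libraries were thus separate in R1 and R4 and overlapped in R5. N rose in R1 (log2 change 0.95 ± 0.13 (SE), adjusted p = 1.00e-05), while the estimates were 0.20 ± 0.13 in R4 and 0.11 ± 0.13 in R5 (adjusted p = 0.237 and 0.629). The spread in these tests within a line is that among passages of a line, not among independent cultures. The intermediate libraries of R1 held 458, 536, 431, 682 and 599 CPM, each above the early ones. Averaged over lines, N was 485 ± 113 CPM at late and 349 ± 31.8 CPM at early (SD, n = 3 lines each, log2 change 0.45 ± 0.16 (SE), adjusted p = 0.126), a difference that did not pass.

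N was the 1 member of 10 whose change from early to late differed among the lines (joint F test, adjusted p = 0.00384), against 12.8% of all genes. With passage 4 counted as intermediate the difference of N did not pass (adjusted p = 0.1204). With passage number as a block across lines, a run without the intermediate libraries, neur, mib1 and mam were called as well (adjusted p = 0.0280, 0.0448 and 0.0245). The gene with the pattern most like N over the 31 grouped libraries, by Pearson correlation of log2 CPM, was rg, which encodes the anchor protein Rugose (r = 0.92), followed by pum, which encodes the translational repressor Pumilio (r = 0.80), and CG42232 (r = 0.80). rg averaged 127 ± 10.3 CPM at late and 34.9 ± 4.15 CPM at early in R1 (SD, n = 3 libraries each). The libraries share lines and cultures, so these values describe the likeness of patterns and carry no test.

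Ser encodes Serrate, the Jagged-type ligand. In R4 Ser stood at 147, 143 and 137 CPM at late passages, against 54.3, 45.2 and 62.5 CPM at early passages. In R5 Ser stood at 100.5, 71.8 and 61.6 CPM at late passages, against 50.7, 35.2 and 43.1 CPM at early passages. In R1 Ser stood at 48.5, 49.9 and 64.1 CPM at late passages, against 26.7, 27.8 and 34.5 CPM at early passages. In each line every late library was above every early library, a pattern shown in that direction by 3.91% of all genes. Ser rose on average over the lines, to 92.7 ± 45.9 CPM at late, against 41.9 ± 12.2 CPM at early (SD, n = 3 lines each, log2 change 1.09 ± 0.19 (SE), adjusted p = 0.0248). The call was kept with any of the 31 libraries left out (adjusted p up to 0.0482). The call was lost without R1 (log2 1.16, adjusted p = 0.147), without R4 (log2 0.87, adjusted p = 0.220) and without the line block (adjusted p = 0.179).

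Within lines Ser rose in R4 (log2 change 1.4 ± 0.28 (SE), adjusted p = 0.000607), in R1 (log2 change 0.87 ± 0.28 (SE), adjusted p = 0.0208) and in R5 (log2 change 0.86 ± 0.28 (SE), adjusted p = 0.0316). These changes were not shown to differ (joint F test, adjusted p = 0.509). The call in R1 was lost without passage 2, 3 or 19 of R1 (adjusted p = 0.0780, 0.0718 and 0.0864) and that in R5 without passage 3, 4 or 16 of R5 (adjusted p = 0.139, 0.0651 and 0.179). The first was also lost without passage 2 of every line (adjusted p = 0.0863) and the second with passage 4 as intermediate (adjusted p = 0.0940). At the intermediate stage Ser stood between 56.3 and 104 CPM in R4 and between 68.8 and 107 CPM in R5. In R1 it held 58.0, 29.2, 37.9, 23.1 and 21.9 CPM at passages 5, 7, 8, 10 and 11, the last 2 below all early libraries of that line. The genes most like Ser over the 31 libraries were SNRPG, a small nuclear ribonucleoprotein gene (r = 0.86), snoRNA:Psi28S-1837c (r = 0.82) and snoRNA:Psi18S-525i (r = 0.82). The last averaged 4.49 ± 1.33 CPM at late in R4 and 1.14 ± 0.283 CPM at late in R1, close to the filter.

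Dl encodes Delta, the other ligand. In R1 Dl stood at 88.8, 105 and 122 CPM at late passages, against 42.7, 41.8 and 30.4 CPM at early passages. In R4 Dl stood at 71.6, 83.2 and 75.3 CPM at late passages, against 70.7, 49.2 and 42.9 CPM at early passages. In R5 the values were 159.6, 141 and 69.8 CPM at late passages, against 114, 61.6 and 60.9 CPM at early passages. R1 and R4 were separated by stage and R5 was not, since its passage 2 was higher than its passage 19. Dl rose in R1 (log2 change 1.45 ± 0.25 (SE), adjusted p = 0.000176), and did not pass in R5 (log2 change 0.64 ± 0.25 (SE), adjusted p = 0.0773) or R4 (log2 change 0.50 ± 0.25 (SE), adjusted p = 0.135). Without passage 2 of R5 or passage 19 of R5 the estimate in R5 was 1.01 or 0.94 and was called (adjusted p = 0.00943 and 0.00782). Without passage 2 of every line Dl was also called in R4 (log2 0.73, adjusted p = 0.0291). Over the lines Dl was 59.1 ± 22.7 CPM at early, 61.0 ± 40.5 CPM at intermediate and 103 ± 24.4 CPM at late (SD, n = 3 lines each). The change from early to late was not called (log2 0.84, adjusted p = 0.104, or 0.0196 with DESeq2). At the intermediate stage Dl ranged from 27.5 to 38.5 CPM in R4, below each early library of that line, and from 88.0 to 119 CPM in R5.

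The genes most like Dl were CG15093 (r = 0.90), CG13248 (r = 0.88) and the entry CG11071 (r = 0.88), which the BDGP6.54 annotation places within mamo, a zinc finger gene. CG11071 averaged 43.9 ± 2.53, 26.1 ± 6.90 and 128 ± 12.4 CPM at the early, intermediate and late stages of R1 (SD, n = 3, 5 and 3 libraries). It averaged 38.5 ± 14.7, 20.2 ± 5.39 and 64.6 ± 8.68 CPM at those of R4, the same order of stages as Dl in R4.

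Per kilobase of exon, the ratio of Ser to Dl was 0.949 ± 0.328, 2.26 ± 0.575 and 1.69 ± 0.162 at the early, intermediate and late stages of R4 (SD between passages). In R1 it was 0.732 ± 0.256, 0.718 ± 0.268 and 0.467 ± 0.0339, and in R5 0.520 ± 0.1197, 0.708 ± 0.103 and 0.610 ± 0.173. Ser thus exceeded Dl in all late libraries of R4 and in none of the late libraries of R5 and R1. The ratios are a description and were not tested.

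**Figure D2:**
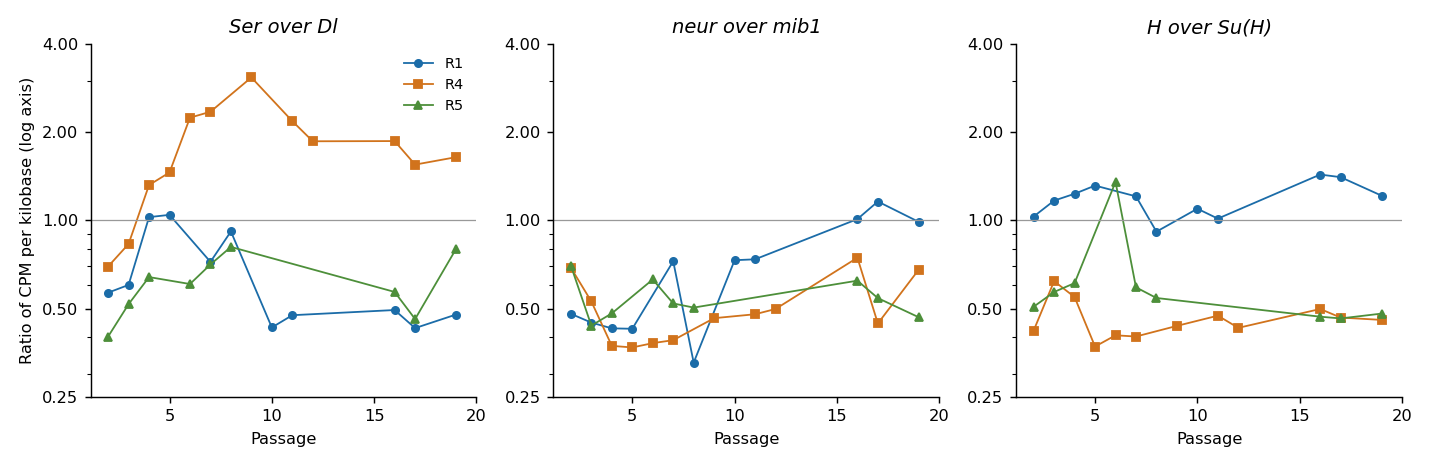
Ratios of transcript levels per kilobase of exon (log axis) against passage number for Ser over Dl, neur over mib1 and H over Su(H), each point 1 library. Ser over Dl lies above 1 from passage 4 on in R4, neur over mib1 lies near 1 at late in R1 (1.05 ± 0.0935), and H over Su(H) averages 1.35 ± 0.119 at late in R1, against 0.474 ± 0.0216 in R4.

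fng encodes Fringe, the glycosyltransferase that extends sugars on Notch and so raises its response to Delta and lowers that to Serrate. In R4 fng stood at 62.8, 59.0 and 75.4 CPM at late passages, against 102, 140.1 and 124 CPM at early passages. In R1 fng stood at 81.3, 87.5 and 96.4 CPM at late passages, against 134, 133 and 128 CPM at early passages. In R5 fng stood at 113, 97.8 and 79.2 CPM at late passages, against 103, 114 and 134 CPM at early passages. The stages were separate in R4 and R1 and overlapped in R5. fng fell in R4 (log2 change -0.89 ± 0.15 (SE), adjusted p = 0.000206) and in R1 (log2 change -0.57 ± 0.15 (SE), adjusted p = 0.00621), and the estimate in R5 was -0.28 (adjusted p = 0.225). Over the lines fng averaged 84.5 ± 16.5 CPM at late and 121 ± 9.30 CPM at early (SD, n = 3 lines each), which did not pass in edgeR (log2 change -0.53 ± 0.15 (SE), adjusted p = 0.0718). It passed with DESeq2 (adjusted p = 0.00885), without R5 (log2 -0.69, adjusted p = 0.0482) and without R5 at passage 16 (adjusted p = 0.0430). At the intermediate stage fng stood at 127 ± 10.2 CPM (SD, n = 3 lines).

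kuz encodes Kuzbanian, the ADAM protease that cuts ligand-bound Notch. It stood at 351 to 508 CPM over the 9 late libraries, against 246 to 478 CPM over the 9 early ones. kuz rose in R4, with 421, 442 and 508 CPM at late passages, against 345, 351 and 246 CPM at early passages (log2 change 0.54 ± 0.14 (SE), adjusted p = 0.00624). It was not called in R1 (log2 0.15, adjusted p = 0.468) or R5 (log2 0.18, adjusted p = 0.420), and with passage 4 as intermediate the call in R4 was lost (log2 0.39, adjusted p = 0.0658). In R1 kuz held 333 to 478, 258 to 304 and 427 to 449 CPM at early, intermediate and late. In R5 these ranges were 310 to 341, 250 to 281 and 351 to 383 CPM, and at intermediate in R4 it held 248 to 414 CPM. Its level over lines was 341 ± 47.8 CPM at early, 289.7 ± 29.4 CPM at intermediate and 424 ± 48.3 CPM at late (SD, n = 3 lines each).

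The ubiquitin ligases neur (Neuralized) and mib1 (Mind bomb 1) act on the ligands in the signal-sending cell. In R1 neur stood at 124, 134 and 119 CPM at late passages, against 75.7, 76.8 and 65.9 CPM at early passages, with no overlap, and it rose (log2 change 0.78 ± 0.20 (SE), adjusted p = 0.00451). In R5 neur was at 86.4, 86.8 and 85.1 CPM at late passages, against 82.0, 69.2 and 78.5 CPM at early passages. In R4 neur stood at 87.4, 56.8 and 81.9 CPM at late passages, against 82.6, 82.0 and 63.5 CPM at early passages. Neither line was called (adjusted p = 0.617 and 0.974). An antisense transcript, asRNA:CR31429, overlaps 38.8% of the exon bases of neur in the BDGP6.54 annotation. Its own count was 0 to 10 reads per library, beside 475 to 1722 for neur, and the sources used here do not say whether counting used strand, so reads of the pair cannot be told apart.

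mib1 fell in R1, with 116, 109 and 114 CPM at late passages, against 149.8, 163 and 146 CPM at early passages (log2 change -0.43 ± 0.14 (SE), adjusted p = 0.0249). This call was lost without passage 2, 3, 16, 17 or 19 of R1 (adjusted p = 0.0502 to 0.0866). In R4 mib1 stood at 111, 121 and 114.5 CPM at late passages, against 114, 147 and 162 CPM at early passages. In R5 mib1 stood at 132, 152 and 173 CPM at late passages, against 111, 150.3 and 155 CPM at early passages. Neither line passed (adjusted p = 0.135 and 0.574). Without passage 2 of R4 mib1 was called lower in R4 (log2 -0.42, adjusted p = 0.0411). Per kilobase of exon, the ratio of neur to mib1 was 1.05 ± 0.0935 at late in R1, against 0.452 ± 0.0262 at early (SD, n = 3 libraries each). At late it was 0.544 ± 0.0779 in R5 and 0.623 ± 0.158 in R4.

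Of the nuclear factors, mam encodes Mastermind, the co-activator that joins Notch and Su(H) on DNA. In R5 mam stood at 88.7, 86.0 and 81.8 CPM at late passages, against 152, 156 and 173 CPM at early passages. In R4 mam stood at 154, 142 and 140.5 CPM at late passages, against 169, 213 and 241 CPM at early passages. In R1 mam stood at 175, 168 and 146 CPM at late passages, against 212, 189 and 217 CPM at early passages. Every late library was below every early library of its line, as for 5.83% of all genes. mam fell in R5 (log2 change -0.91 ± 0.14 (SE), adjusted p = 7.68e-05) and in R4 (log2 change -0.51 ± 0.14 (SE), adjusted p = 0.00767). The estimate in R1 was -0.34 (adjusted p = 0.0698, or 0.0455 without R4 at passage 11). With passage 4 as intermediate the call in R4 was lost (log2 -0.39, adjusted p = 0.148). Over the lines mam averaged 133 ± 41.9 CPM at late and 187 ± 26.3 CPM at early (SD, n = 3 lines each, log2 change -0.55 ± 0.15 (SE), adjusted p = 0.0712). This passed with DESeq2 (adjusted p = 0.00671) and with passage 4 as intermediate (adjusted p = 0.0457). In R5 the lower level was present at the intermediate stage, at 109.6, 99.3 and 88.0 CPM at passages 6, 7 and 8.

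Su(H), the DNA-binding factor of the pathway, was the steadiest member, with 28.6 to 42.4 CPM over all 32 libraries. It was called in no comparison of stages, but the steps through the intermediate stage were not tested within a line. In R1 Su(H) held 35.2 to 39.1 CPM at intermediate, against 29.9 to 31.4 CPM at early and 29.5 to 30.8 CPM at late. In R4 Su(H) held 38.3 to 42.4 CPM at intermediate, against 31.4 to 33.4 CPM at early and 33.4 to 35.5 CPM at late. In R5 Su(H) held 30.3 to 30.8 CPM at intermediate, within its early range. Its standard errors for late against early within a line were 0.06 on the log2 scale, the smallest of the 10 members. Over the lines it was 30.7 ± 1.03 CPM at early, 36.0 ± 4.76 CPM at intermediate and 33.0 ± 2.25 CPM at late (SD, n = 3 lines each).

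H encodes Hairless, which binds Su(H) and recruits co-repressors. In R1 H stood at 89.8, 84.5 and 73.1 CPM at late passages, against 65.9, 72.3 and 75.0 CPM at early passages. In R5 H stood at 31.1, 29.1 and 35.0 CPM at late passages, against 32.0, 35.7 and 35.6 CPM at early passages. In R4 H stood at 35.7, 31.7 and 33.0 CPM at late passages, against 27.7, 39.6 and 37.2 CPM at early passages. The stages overlapped in each line, and H was called in no comparison of stages (adjusted p = 0.783 over the lines).

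H instead differed between lines from the start. At early passages all 3 libraries of R1 were above all 6 of R5 and R4 (joint F test, adjusted p = 0.00362), a call lost with passage 4 as intermediate (adjusted p = 0.0770). At late R5 was lower than R1 (log2 difference -1.38 ± 0.22 (SE), adjusted p = 4.26e-05) and R1 higher than R4 (log2 difference 1.30 ± 0.22 (SE), adjusted p = 0.000286). R5 at passage 6 stood apart, with 84.9 CPM of H, against 36.4 and 33.7 CPM at passages 7 and 8. Its level lay within the range of R1. The 3 genes most like H, named after their values were seen, were pygo, which encodes the Wnt co-activator Pygopus (r = 0.95), tay (r = 0.95) and CG9467 (r = 0.93). In R5 at passage 6 they stood at 68.7, 117 and 66.2 CPM, against 49.6, 77.0 and 35.0 CPM at passage 7 of that line. These genes were picked over the 31 grouped libraries, which include R5 at passage 6, so their values there are not independent of H. Among the other members neur stood at 92.2, 59.4 and 71.7 CPM at passages 6, 7 and 8 of R5, and mib1 at 139, 108 and 135 CPM. N, Ser, fng, kuz and Su(H) had 406, 73.4, 117, 252 and 30.8 CPM at passage 6, and 396, 68.8, 114.5, 250.4 and 30.3 CPM at passage 7. Dl and mam had 109 and 109.6 CPM at passage 6, and 88.0 and 99.3 CPM at passage 7. These differences between single libraries were not tested.

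Counted by line, 6 of the 10 members were called in R1, with N, Dl, Ser and neur higher and fng and mib1 lower at late, against 27.7% of all genes (12.5% higher and 15.2% lower). In R4 4 were called, Ser and kuz higher and fng and mam lower, against 30.9% of all genes (14.1% higher and 16.7% lower). In R5 2 were called, Ser higher and mam lower, against 17.4% (7.73% higher and 9.72% lower). R1 had a median log2 change of the members of 0.18, R4 one of 0.04 and R5 one of 0.13, beside -0.01, -0.02 and 0.001 over all genes. Late and early libraries did not overlap for 7 members in R1, 7 in R4 and 4 in R5, as for 48.6%, 39.9% and 34.1% of all genes. In R1 both Ser and mib1 were lost without passage 2, 3 or 19 of R1, with 4 members called without passage 2. Without passage 16 or 17 of R1 mib1 alone was lost. In R5 Ser was lost without passage 3, 4 or 16 of R5, with 1 member called without passage 3. Dl was added in R5 without passage 2 or 19 of R5, with 3 members called without passage 2.

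**Figure D3:**
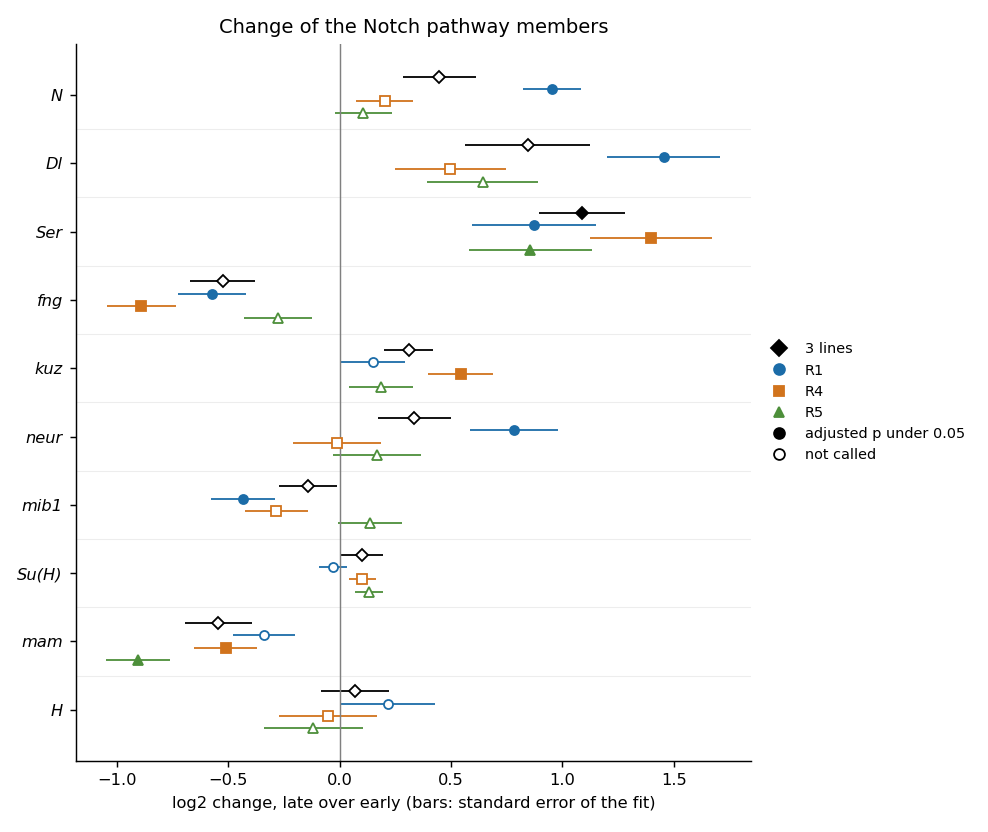
Fitted log2 change from early to late of the 10 members, with standard errors, on average over the 3 lines (diamonds) and in R1 (circles), R4 (squares) and R5 (triangles). Filled symbols mark an adjusted p under 0.05: Ser is filled in all 4 estimates, and N, Dl and neur in R1 alone.

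Over the lines, the steps through the intermediate stage held no called member, and these steps were not tested within a line. Between intermediate and early none of the 10 passed in edgeR, against 9.69% of all genes (3.67% higher and 6.02% lower), with 2 at an unadjusted p under 0.05, as had 2937 of 9177 genes. DESeq2 called 1 member, Ser (log2 0.62), beside 1989 genes. Between late and intermediate none passed either, against 0.0763% of all genes (0.0218% higher and 0.0545% lower), with 4 at an unadjusted p under 0.05, as had 1007 of 9177 genes. DESeq2 called 3 members, beside 291 genes. These were Dl and kuz, higher at late (log2 0.92 and 0.54), and fng, lower at late (log2 -0.59).

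The last comparison asked how the lines differed in these genes. At early passages Dl (adjusted p = 0.0365) and H were the 2 of 10 members that differed among lines, against 4.69% of all genes. Early Dl stood at 114, 61.6 and 60.9 CPM in R5, 42.7, 41.8 and 30.4 CPM in R1 and 70.7, 49.2 and 42.9 CPM in R4, and the libraries of R5 were all above those of R1. The call of Dl was lost with passage number as a block and the intermediate libraries left out (adjusted p = 0.0649), a run in which Ser and mam passed (adjusted p = 0.0289 and 0.0386). It was also lost without passage 2, 3 or 4 of R1 or passage 2 of R5 (adjusted p = 0.0763 to 0.161). Without passage 2 of every line or with passage 4 as intermediate the difference of Dl did not pass either (adjusted p = 0.208 and 0.276).

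At late passages 8 of the 10 members differed among lines, all but Dl (adjusted p = 0.0695) and kuz (adjusted p = 0.140), where 46.3% of all genes did so. Dl was added without either of passages 2 and 19 of R5 in turn (adjusted p = 0.00576 to 0.0372). The joint call was lost for fng without either of passages 16 and 17 of R4 in turn (adjusted p = 0.0554 to 0.0736) and for mib1 without any of passage 19 of R1 and passages 17 and 19 of R5 in turn (adjusted p = 0.0501 to 0.152). For Su(H) it was lost without any of passages 17 and 19 of R1 and passage 19 of R4 in turn (adjusted p = 0.0580 to 0.0684), and with no filter on low counts, passage 4 or passage 12 of R4 as intermediate, or passage number as a block (adjusted p = 0.136, 0.100, 0.0621 and 0.0879). By pairs of lines, 5 members were called in R5 against R1 (1 higher and 4 lower), beside 33.7% of all genes (17.4% higher and 16.3% lower). In R5 against R4 5 were called (3 higher and 2 lower), beside 34.1% of all genes (17.4% higher and 16.7% lower). In R1 against R4 5 were called (3 higher and 2 lower), beside 14.7% of all genes (7.24% higher and 7.46% lower). The fewest were 3 in R5 against R1 without passage 17 of R1, 2 in R5 against R4 without passage 17 of R5 and 3 in R1 against R4 without passage 17 of R1.

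N averaged 408 ± 46.8 CPM in R5, 603 ± 47.2 CPM in R1 and 423 ± 15.4 CPM in R4 (SD, n = 3 libraries each). R5 was lower than R1 (log2 difference -0.56, adjusted p = 0.00149) and R1 higher than R4 (log2 difference 0.51, adjusted p = 0.00793), while R5 and R4 were not shown to differ (log2 difference -0.05 ± 0.13). With passage 4 as intermediate the difference of N between R1 and R4 did not pass (adjusted p = 0.0696). R4 carried the most Ser, since R5 was lower than R4 (log2 difference -0.87 ± 0.27 (SE), adjusted p = 0.0157) and R1 lower than R4 (log2 difference -1.39 ± 0.28 (SE), adjusted p = 0.00119), while R5 and R1 did not pass (adjusted p = 0.142). The difference between R5 and R4 was lost without passage 17 or 19 of R5 (adjusted p = 0.0580 and 0.0819).

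R5 carried the least mam, lower than R1 (log2 difference -0.93 ± 0.14 (SE), adjusted p = 2.43e-05) and than R4 (log2 difference -0.77 ± 0.14 (SE), adjusted p = 0.000228), and R1 and R4 were not shown to differ (adjusted p = 0.491). fng was higher in R5 than in R4 (log2 0.56, adjusted p = 0.00707), a call lost without R5 at passage 16 (adjusted p = 0.0531).

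neur was lower in R5 than in R1 (log2 -0.54, adjusted p = 0.0371) and higher in R1 than in R4 (log2 0.73, adjusted p = 0.0140). The difference of R5 from R1 was lost without any of passages 16 and 17 of R1 and passages 16, 17 and 19 of R5 in turn (adjusted p = 0.0712 to 0.108). That of R1 from R4 was lost without either of passage 17 of R1 and passage 17 of R4 in turn (adjusted p = 0.0523 to 0.0995). mib1 was higher in R5 than in R1 (log2 0.43, adjusted p = 0.0236) and than in R4 (log2 0.40, adjusted p = 0.0347). The first was lost without any of passages 17 and 19 of R1 and passages 17 and 19 of R5 in turn (adjusted p = 0.0523 to 0.109). The second was lost without any of passages 2 and 19 of R1, passages 16, 17 and 19 of R4 and passages 17 and 19 of R5 in turn (adjusted p = 0.0502 to 0.149). Su(H) was lower in R1 than in R4 (log2 difference -0.21 ± 0.06 (SE), adjusted p = 0.0208). This was lost without any of passages 17 and 19 of R1 and passages 16 and 19 of R4 in turn (adjusted p = 0.0669 to 0.0742), with no filter on low counts, with passage 4 as intermediate and with passage 12 of R4 as intermediate (adjusted p = 0.119, 0.0950 and 0.0592). Dl was higher in R5 than in R4 (log2 0.69, adjusted p = 0.0351), which was lost without any of passages 16, 17 and 19 of R4 and passages 16 and 17 of R5 in turn (adjusted p = 0.0558 to 0.200).

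**Figure D4:**
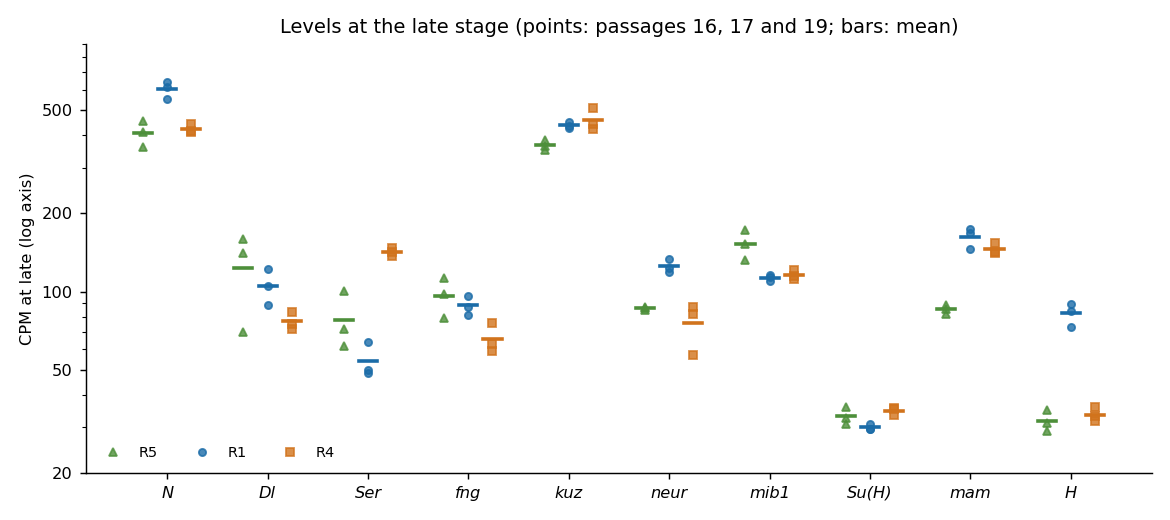
CPM of the 10 members (log axis) at passages 16, 17 and 19 of R5 (triangles), R1 (circles) and R4 (squares), with the mean of each line as a bar. The R1 libraries lie above the others for N, neur and H, the R4 libraries above the others for Ser, and the R5 libraries below the others for mam.

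Scaled to exon length from the BDGP6.54 annotation, fng and then kuz ranked highest at early passages in all 3 lines, with line means of 59.8 to 67.2 CPM per kilobase for fng and 44.2 to 55.5 for kuz, beside 30.7 to 37.4 for N. At late kuz ranked first in each line, at 51.5 to 64.4 CPM per kilobase, with N at 40.2 to 59.4 and fng at 33.6 to 49.3. The lowest member per kilobase at late was Ser in R1 (9.29 CPM per kilobase) and H in R5 and R4 (5.28 and 5.58).

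Of 30 further pathway genes chosen from general knowledge (gamma-secretase subunits, maturation and trafficking factors, ligase partners and nuclear co-regulators), 27 passed the filter and Brd, BobA and Ocho did not. Between late and early over the lines 1 rose and none fell, beside 3.98% of all genes higher and 6.56% lower, with a median log2 change of 0.10. DESeq2 gave 2 higher and 1 lower, and edgeR called 2 without any of passages 2, 8, 10, 11 and 16 of R1, passages 4, 5 and 16 of R4 and passages 3, 4, 7, 16 and 17 of R5 in turn. The riser was rumi, which encodes the glucosyltransferase that adds glucose to Notch, at 45.0 ± 5.62 CPM at late, against 33.5 ± 3.89 CPM at early (SD, n = 3 lines each, log2 change 0.42 ± 0.07 (SE), adjusted p = 0.0186). Its call was lost without R1 or R4 or without the line block (adjusted p = 0.147, 0.263 and 0.107). By line 7 rose and 2 fell in R1, 8 rose and 1 fell in R4, and 1 rose and 3 fell in R5, beside the 27.7%, 30.9% and 17.4% of all genes called in those lines. In R1 4 were called without passage 3 and 5 without passage 2 of R1, and in R5 1 was called without passage 16 and 2 without any of passages 2, 3 and 17 of R5. Between intermediate and early 2 of the 27 rose and none fell, beside 3.67% of all genes higher and 6.02% lower. At most 1 was called without any of passages 2, 5, 7 and 16 of R1, passages 2, 4, 7 and 19 of R4 and passages 2, 6 and 16 of R5 in turn. The gamma-secretase genes Psn, Nct, aph-1 and pen-2, named as a whole complex after their values were seen, had log2 changes of 0.10, -0.04, -0.04 and 0.00 over the lines, none of which passed.

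The change differed among lines for 4 of the 27 (spdo, Fur1, Tom and Su(dx)), beside 12.8% of all genes. spdo encodes Sanpodo, a membrane protein that promotes Notch signalling in asymmetric divisions. It rose in R1, with 36.7 ± 5.09 CPM at late and 9.99 ± 0.843 CPM at early (SD, n = 3 libraries each), and in R4, with 28.8 ± 1.43 CPM at late and 10.2 ± 2.32 CPM at early. In R5 it fell, with 4.02 ± 0.707 CPM at late and 8.44 ± 5.08 CPM at early (log2 -1.09, adjusted p = 0.0250). This call was lost without any of passages 2, 16 and 17 of R5 in turn (adjusted p = 0.0569 to 0.385). The test of the difference gave an adjusted p of 0.000205. Tom, which encodes an inhibitor of Neuralized, rose in R4 (4.90 ± 0.886 CPM at late and 1.72 ± 0.434 CPM at early), and was not called in R1 or R5 (log2 0.85 and -0.28). In R1 it was called without any of passages 8 and 17 of R1, passages 5, 6 and 9 of R4 and passage 2 of R5 in turn (adjusted p = 0.0401 to 0.0479). Fur1, a proprotein convertase gene, fell in R4 (log2 -0.52), with 0.01 in R1 and 0.10 in R5. Su(dx), a ubiquitin ligase of Notch trafficking, had log2 changes of 0.20 in R4, -0.12 in R1 and -0.21 in R5, and edgeR called no line with all libraries in. DESeq2 called it lower in R5 (log2 -0.22, adjusted p = 0.0421). In edgeR it was called in R5 without either of passage 5 of R4 and passage 4 of R5 in turn (adjusted p = 0.0293 to 0.0433) and in R4 without any of passage 2 of R1, passages 2, 5, 9 and 16 of R4 and passage 6 of R5 in turn (adjusted p = 0.0378 to 0.0491). The difference was lost without any of passages 3, 4, 17 and 19 of R4 and passages 2, 16 and 19 of R5 in turn (adjusted p = 0.0519 to 0.0728) for Su(dx). For Tom it was lost without any of passage 19 of R4 and passages 2, 16 and 17 of R5 in turn (adjusted p = 0.0517 to 0.0959), and for Fur1 without either of passages 3 and 16 of R4 in turn (adjusted p = 0.0651 to 0.0713). Without passage 2 of every line or with passage 4 as intermediate the differences of Tom, Fur1 and Su(dx) did not pass (adjusted p = 0.0654 to 0.168).

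The E(spl) complex, the classical set of direct Notch targets, holds genes for basic helix-loop-helix repressors and for small proteins of the Bearded family. Of its 11 genes 9 passed the filter and E(spl)m4-BFM and E(spl)m5-HLH did not. Late against early, 8 of 9 rose in R1, 5 of 9 in R4 and none in R5, and none fell in any line, with backgrounds of 12.5%, 14.1% and 7.73% of genes called upward. E(spl)m8-HLH, called in R1, lay close to the filter, at 1.03 ± 0.228 CPM at late and 0.173 ± 0.0301 CPM at early in R1 (SD, n = 3 libraries each). At late it averaged 0.602 CPM in R4 and 0.327 CPM in R5. Late R1 was the only group averaging above 1 CPM, so its call there is not independent of the filter. In R5, 3 of 9 had an unadjusted p under 0.05, as had 2752 of 9177 genes, and DESeq2 called none. The 9 had a median log2 change of 1.99 in R1 and of 0.68 in R4, with -0.08 for R5. The counts stayed at 7 to 8 for R1 and at 4 to 7 for R4 with any 1 library left out, and at 0 to 1 for R5, where E(spl)mdelta-HLH fell without R4 at passage 4 (log2 -1.26, adjusted p = 0.0341).

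E(spl)m6-BFM had the highest fitted change of the 9 in R1 and R4, with 92.7 ± 10.7 CPM at late and 4.86 ± 0.360 CPM at early in R1 (SD, n = 3 libraries each, log2 4.26). In R4 it had 44.1 ± 6.38 CPM at late and 5.52 ± 2.16 CPM at early (log2 3.00), and in R5 6.69 ± 5.11 CPM at late and 6.88 ± 1.70 CPM at early (log2 -0.03). E(spl)mgamma-HLH stood at 39.5 ± 3.71 CPM at late and 4.47 ± 0.833 CPM at early in R1 (SD, n = 3 libraries each). In R4 it stood at 17.6 ± 1.05 CPM at late and 6.69 ± 0.597 CPM at early, while R5 had 6.18 ± 1.36 CPM at late and 8.31 ± 1.001 CPM at early. The changes of 4 of the 9 genes differed among lines, beside 12.8% of all genes. By the joint F test these were E(spl)mgamma-HLH (adjusted p = 8.15e-07), E(spl)mdelta-HLH (adjusted p = 0.00108), E(spl)m2-BFM (adjusted p = 0.00973) and E(spl)m6-BFM (adjusted p = 0.00998). E(spl)mdelta-HLH reached 0.947 ± 0.570 CPM at late in R5, 17.8 ± 0.921 CPM in R1 and 18.4 ± 1.70 CPM in R4. E(spl)m2-BFM rose in R1 (log2 1.34), with estimates of -0.67 in R4 and -0.67 in R5, the first of which was called without R4 at passage 4 (log2 -1.0, adjusted p = 0.0311). The call of E(spl)m6-BFM was lost with passage 4 as intermediate (adjusted p = 0.0595).

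Averaged over the lines, 2 of 9 rose, E(spl)malpha-BFM and E(spl)m7-HLH, and none fell, beside 3.98% of all genes higher and 6.56% lower. E(spl)m7-HLH was 4.92 ± 2.43 CPM at late and 1.62 ± 0.125 CPM at early (SD, n = 3 lines each, log2 change 1.52 ± 0.35 (SE), adjusted p = 0.0485). Leaving out 1 library lost the call in 17 cases of 31, namely passages 2, 5, 7, 11, 16 and 19 of R1, passages 2, 3, 4, 5, 6, 7, 9 and 16 of R4 and passages 3, 7 and 17 of R5 (adjusted p = 0.0506 to 0.0654). The call was also lost without R1, without R4 and without the line block (adjusted p = 0.240, 0.354 and 0.0514), as well as without passage 2 of every line, with another filter on low counts and with passage 12 of R4 as intermediate (adjusted p = 0.0557, 0.0567 or 0.0705, and 0.0501). E(spl)malpha-BFM was 20.5 ± 3.41 CPM at late and 10.8 ± 2.44 CPM at early (SD, n = 3 lines each, log2 0.93), and its call was lost without R4 at passage 2 or R5 at passage 2 (adjusted p = 0.0665 and 0.0563). It was also lost without passage 2 of every line, without R1 and without R4 (adjusted p = 0.0783, 0.138 and 0.246). E(spl)m3-HLH was the 1 of 9 not called in R1, at 56.9 ± 20.5, 12.3 ± 6.06 and 47.8 ± 7.66 CPM at early, intermediate and late (SD, n = 3, 5 and 3 libraries). Ser rose in R5 as well, where no E(spl) gene was called. The relation between members and targets was not tested.

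**Figure D5:**
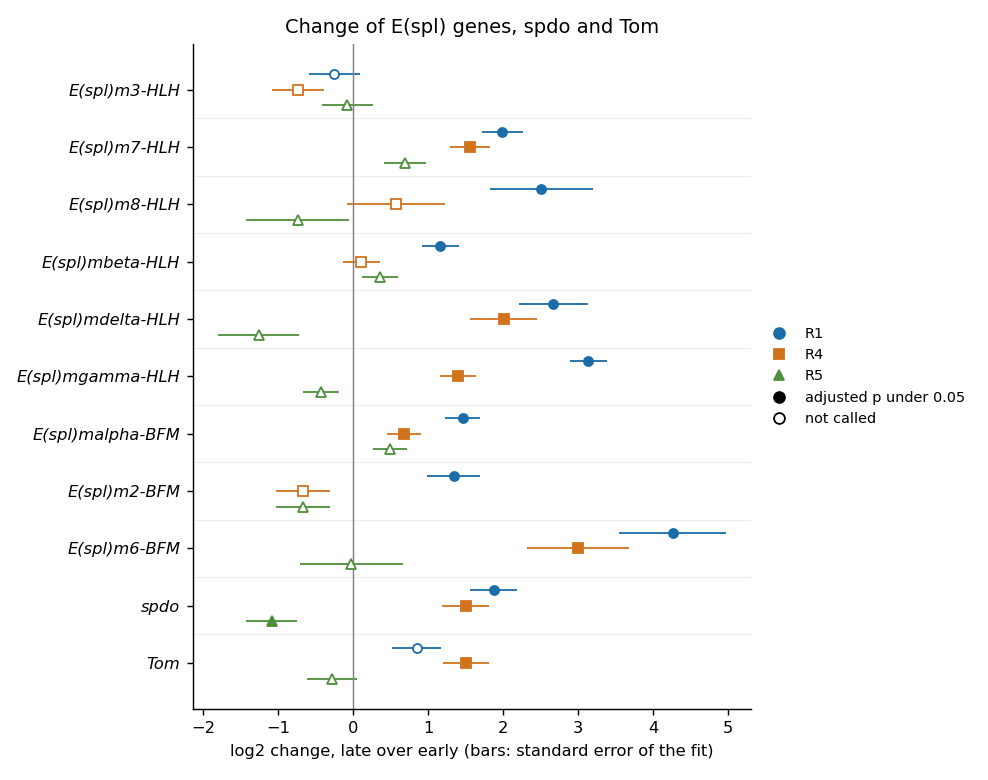
Fitted log2 change from early to late, with standard errors, of the 9 tested E(spl) genes, spdo and Tom in R1 (circles), R4 (squares) and R5 (triangles), with filled symbols for an adjusted p under 0.05. All E(spl) genes but E(spl)m3-HLH are filled in R1, 5 are filled in R4 and none in R5.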

How the data were processed

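Total RNA was extracted with TRIzol, depleted of ribosomal RNA with Ribo-Zero and made into ScriptSeq v2 libraries, per the labels' protocols. The deposited values are raw read counts per gene, 1 file per library, not normalized by the authors. The submitters' processing notes name TopHat 1.4.1, Bowtie 0.12.8, bedtools and the builds BDGP5 and dm3. The sources used here do not say whether counting used strand. Each file listed 15253 entries, of which 2 name no gene (at most 0.0187% of a library's reads) and were left out. Gene names and exon lengths came from the BDGP6.54 annotation, and no coordinates or sequences were used.

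CPM were TMM-scaled over all 32 libraries with edgeR 4.0.16 (R 4.3.3). Genes with at least 1 CPM in at least 3 of the 31 grouped libraries were tested with edgeR's quasi-likelihood test and Benjamini-Hochberg adjustment (threshold 0.05). For stages over lines, counts were summed into 9 groups of line and stage and fitted with the line as a block (4 residual degrees of freedom). Comparisons within a line and among lines used all 31 libraries with 1 coefficient for each of the 9 groups (22 residual degrees of freedom). Nothing says that the passages of a line came from separate cultures, so these p-values cover only how a line's own passages vary, which may be technical, and counting error is covered by no separate interval. Passage 4, which the series text names in both the early and the intermediate stage, was taken as early. The summed counts of a line at different stages deviated together from their stage means (r = 0.24 to 0.63). Deviations of single libraries from their line and stage mean were correlated within a passage number at early (r = 0.11 to 0.73). At late they were not (r = -0.08 to 0.08). The reported tests held no term for passage number, so this pairing at early was not modelled. The alternative with passage number as a block had terms for both the early and the late passages. It left out the intermediate libraries, so it differed from the reported tests in its samples as well as in the block. DESeq2 1.42.0, median-of-ratios scaling, other filters on low counts, other stage limits and libraries or lines left out were the alternatives. The code was tested on simulated data.

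The text names all 10 members, each gene of the other pathway and E(spl) lists called over the lines or in the change among lines, and the 3 genes most like N, Dl and Ser (Pearson's r of log2 CPM, prior count 2). The members and lists were chosen with earlier results of these data known.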

Additional observations from a re-analysis of the deposited data

Results flagged for a closer look

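Among the intermediate libraries of R1 and R4, in which each group held 5 samples, 8 of the 42 groups of gene and line tested held a sample far from the others, where chance gives about 1 in 20. In R1 passage 5 stood apart for E(spl)m2-BFM (5.92 CPM), E(spl)m6-BFM (8.06 CPM) and Fur1 (64.9 CPM, the lowest of its group). Passage 8 of R1 stood apart for mib1 (198 CPM), Tom (1.78 CPM) and rumi (30.9 CPM, the lowest of its group). In R4 fng stood at 169 CPM at passage 5 and spdo at 10.4 CPM at passage 11.

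The change from early to late differed among the lines, by edgeR's joint test of the difference, for N (adjusted p = 0.00384), spdo (0.000205), Fur1 (0.0200), Tom (0.0259) and Su(dx) (0.0310). Among the E(spl) genes it differed for E(spl)mgamma-HLH (adjusted p = 8.15e-07), E(spl)mdelta-HLH (0.00108), E(spl)m2-BFM (0.00973) and E(spl)m6-BFM (0.00998). N rose in R1 by a log2 change of 0.95, with 0.20 in R4 and 0.11 in R5. All 3 late libraries of N were above all 3 early ones in R1 and in R4, and the stages overlapped in R5. Late and early libraries did not overlap for 48.6% of all genes in R1 and 39.9% in R4. The change differed among lines for 12.8% of all genes. With passage 4 as intermediate the differences of N, Fur1, Tom, Su(dx) and E(spl)m6-BFM did not pass (adjusted p = 0.0595 to 0.1204).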

How the results depend on the processing

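No called value of a member changed direction under any alternative run. For late against early over the lines, 967 genes and 1 member were called. DESeq2 gave 1860 genes and 4 members, leaving out passage 2 of every line 632 genes, dropping the line block (the replicate block of this design) 484 genes and 0 members, leaving out R1 61 genes and 0 members, leaving out R4 35 genes and 0 members, leaving out R5 2 members, and passage 4 as intermediate 2 members. For intermediate against early (889 genes, 0 members) DESeq2 gave 1989 genes and 1 member, leaving out passage 2 302 genes, no line block 349, leaving out R1 21 and leaving out R4 6. For late against intermediate (7 genes, 0 members) DESeq2 gave 291 genes and 3 members, no filter 15 genes, no line block 3, leaving out R1 1, leaving out R4 0 and leaving out R5 108. With passage 4 as intermediate 2 members were called in R4, 1 in R5, 3 in R1 against R4 at late and 0 in the change among lines, and 64 genes and 0 members differed among lines at early. Leaving out passage 2 gave 763 genes in the change among lines, and 221 genes and 1 member at early, where DESeq2 gave 796 genes. With passage number as a block and no intermediate libraries, 4 members were called in the change among lines, and 660 genes differed at early.

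With each library left out in turn, genes and members called were 591 to 1029 and 1 to 2 (late against early), 322 to 1057 and 0 to 0 (intermediate against early), 0 to 13 and 0 to 0 (late against intermediate), 1703 to 2779 and 4 to 7 (R1), 2110 to 3111 and 4 to 5 (R4), 1136 to 1803 and 1 to 3 (R5), 863 to 1508 and 1 to 1 (change among lines), 193 to 722 and 1 to 2 (lines at early), 3533 to 4476 and 6 to 9 (lines at late), 801 to 1556 and 3 to 6 (R1 against R4), 2321 to 3300 and 3 to 5 (R5 against R1) and 2450 to 3348 and 2 to 5 (R5 against R4). The 591 and 322 genes came without passage 2 of R4. Counts moved by over 1.5 times, up or down, without passages 4, 5, 8 and 19 of R1, passages 4, 5, 6 and 16 of R4 and passages 2, 6, 16, 17 and 19 of R5 in late against intermediate, without passages 2 and 3 of R1, passage 2 of R4 and passages 3 and 4 of R5 for lines at early and without passages 16, 17 and 19 of R1 and passages 16 and 17 of R4 for R1 against R4. Leaving out a line or library leaves fewer samples. The comparisons over lines had 4 residual degrees of freedom. The cause of the other shifts was not tested.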
